A study of Mus musculus with 16 samples.

Results

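Aminoacyl-tRNA synthetases load each amino acid onto its tRNA before protein synthesis. The members described here were the rows of the deposited log2 CPM table (CPM, counts scaled to the size of the library) whose symbol belongs to a list of cytosolic and mitochondrial synthetases, where a name ending in 1 could lack the 1. All 35 listed genes had a row, of 16707 rows in all, and they comprised 19 cytosolic and 16 mitochondrial genes. The data came from primary astrocytes of WT (C57BL/6J) pups and of Nlrx1-/- pups, which lack the mitochondrial NOD-like receptor NLRX1. Brains were taken at P6 according to the labels, cells were enriched with beads against the astrocyte surface antigen ACSA-2, and the cultures were grown in serum-free medium. Each of 4 litters per genotype gave a vehicle well and a well stimulated for 24 h with lipopolysaccharide (LPS, 500 ng/mL) and IFNγ (10 ng/mL), both made from the same set of mice. Those 16 libraries form 4 groups of 4.

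Cytosolic synthetases serve the translation of nuclear-encoded messages, whereas a separate nuclear-encoded set is imported into mitochondria for the proteins made there. Gars1 (glycine) and Kars1 (lysine) make enzymes for both compartments and were kept with the cytosolic genes, and Qars1 (glutamine) has no mitochondrial counterpart, since mitochondria reach glutaminyl-tRNA by amidation. Eprs1 carries glutamate and proline activities in a single protein, and Farsa and Farsb encode the subunits of the cytosolic phenylalanine enzyme. Several cytosolic enzymes, among them those of Eprs1, Iars1, Kars1, Lars1, Mars1, Qars1 and Rars1, sit in a multisynthetase complex. Many cytosolic synthetase genes are known targets of ATF4, the transcription factor of the integrated stress response, while Wars1 (tryptophan) is a classical IFNγ-induced gene.

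Depth ran from 27259420 to 43752903 read pairs assigned to transcripts by Salmon, with a median of 35554625. Nlrx1 lay between 4.08 and 4.44 log2 CPM in the WT libraries and between 1.09 and 2.96 in the Nlrx1-/- libraries, which did not overlap. The 8 astrocyte markers listed, Gfap and Aqp4 among them, were all in the table, with summed levels between 4760 and 9180 CPM. Of 6 microglial markers only P2ry12 had a row, at no more than 1.78 CPM, and the endothelial markers Cldn5, Pecam1 and Cdh5 had none. Median sums of 5 neuronal markers were 33.8 CPM in vehicle and 85.7 in stimulated WT cultures, and 32.8 and 82.5 in Nlrx1-/- cultures. Among them Tubb3 was higher and Rbfox3 and Dcx lower after stimulation in every litter. Those of 2 ependymal markers were 197 and 135 CPM in WT and 144 and 95 in Nlrx1-/- cultures. Those of 4 fibroblast and mural markers were 31.1 and 25.2, and 25.7 and 16.9 CPM. The 6 oligodendrocyte lineage markers had a median sum of 585 CPM in vehicle and 320 in stimulated WT cultures, and of 312 and 124 CPM in the corresponding Nlrx1-/- cultures. The median astrocyte sum was 7300 and 6970 CPM in WT and 5670 and 5240 CPM in Nlrx1-/- cultures. Their part in the results below was not tested, and in bulk RNA fewer cells of a type cannot be told apart from less RNA per cell.

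Five-prime windows of the cytosolic genes were searched first, because ATF4 with its C/EBP partners binds a composite element that can be read from sequence. RefSeq promoter windows (GRCm38.p6, 300 bases, of which 250 lie before the start) were at hand for 12 cytosolic and 14 mitochondrial genes. Absent were Cars1, Hars1, Lars1, Nars1, Rars1, Vars1, Wars1, Hars2 and Pars2. The letters TGATGNAA, searched on both strands, stood in the windows of 5 of the 12 cytosolic genes, which were Aars1, Gars1, Iars1, Tars1 and Yars1, and in 0 of the 14 mitochondrial ones, against 4.51% of all 27025 genes with a window. In each stretch below the match is in capitals, read 5′ to 3′ on the strand of the gene.
Aars1: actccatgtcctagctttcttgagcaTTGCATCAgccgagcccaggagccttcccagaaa
Gars1: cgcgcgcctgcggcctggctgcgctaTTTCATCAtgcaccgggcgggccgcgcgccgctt
Iars1: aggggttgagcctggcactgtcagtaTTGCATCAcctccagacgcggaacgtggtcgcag
Tars1: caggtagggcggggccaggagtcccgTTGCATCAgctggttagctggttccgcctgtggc
Yars1: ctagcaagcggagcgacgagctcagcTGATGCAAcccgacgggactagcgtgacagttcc

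These stretches lie on the plus strand at chr8:111033704-111033763 (Aars1), chr6:55037945-55038004 (Gars1), chr13:49682111-49682170 (Iars1) and chr4:129189880-129189939 (Yars1), and on the minus strand at chr15:11399640-11399699 (Tars1). The Aars1 window holds 2 matches, of which the first is shown. The first base of the match shown lay at -112 for Aars1, -30 for Gars1, 7 for Iars1, -15 for Tars1 and 3 for Yars1, counted from the annotated start. The gamma-activated motif TTCNNNGAA was found in the windows of Aars1 and Kars1 among the 12 cytosolic genes and of Nars2 among the 14 mitochondrial ones, against 9.55% of all genes. The interferon-stimulated motif, GAAA repeated after 2 bases of any kind, was in that of Qars1 alone, against 3.99% of all genes. A match describes letters and not a binding site, and no window of Wars1 was available.

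Levels of different genes were compared per length, in TPM, a share of all transcripts corrected for length, summed over the transcripts paired with each gene. In WT vehicle cultures Kars1 led the 35 genes with 131 ± 5.88 TPM (SD, n = 4), followed by Nars1 (asparagine) with 91.1 ± 1.52 TPM. Lars2, the mitochondrial leucine enzyme, came next with 78.2 ± 10.1 TPM, which overlaps within its SD with Eprs1 at 75.5 ± 1.89, Gars1 at 71.8 ± 8.25 and Qars1 at 70.3 ± 5.16 TPM. The lowest levels were those of Ears2 (5.92 TPM), Pars2 (6.86) and Wars2 (7.44), all mitochondrial, beside Nars2, whose 4.10 TPM leave out the reads of transcripts that could not be paired with its symbol.

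The median cytosolic gene had 52.1 TPM in WT vehicle and the median mitochondrial gene 16.4 TPM. Among 13 amino acids with an enzyme gene in each compartment, isoleucine and leucine had the lower TPM on the cytosolic side in WT vehicle, with cytosolic to mitochondrial ratios of 0.472 and 0.495. Cysteine, at 1.12-fold, may not keep its direction, since the paired transcripts hold 89.1% to 97.6% of the reads of Cars1 and 75.3% to 95.8% of those of Cars2. For the other 10 the cytosolic gene was the higher. The tryptophan ratio was 8.90-fold and the alanine ratio 5.45-fold, while that of asparagine (22.2-fold) cannot be placed among them, as only 31.3% to 76.7% of the deposited reads of Nars2 were on paired transcripts.

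**Figure D1:**
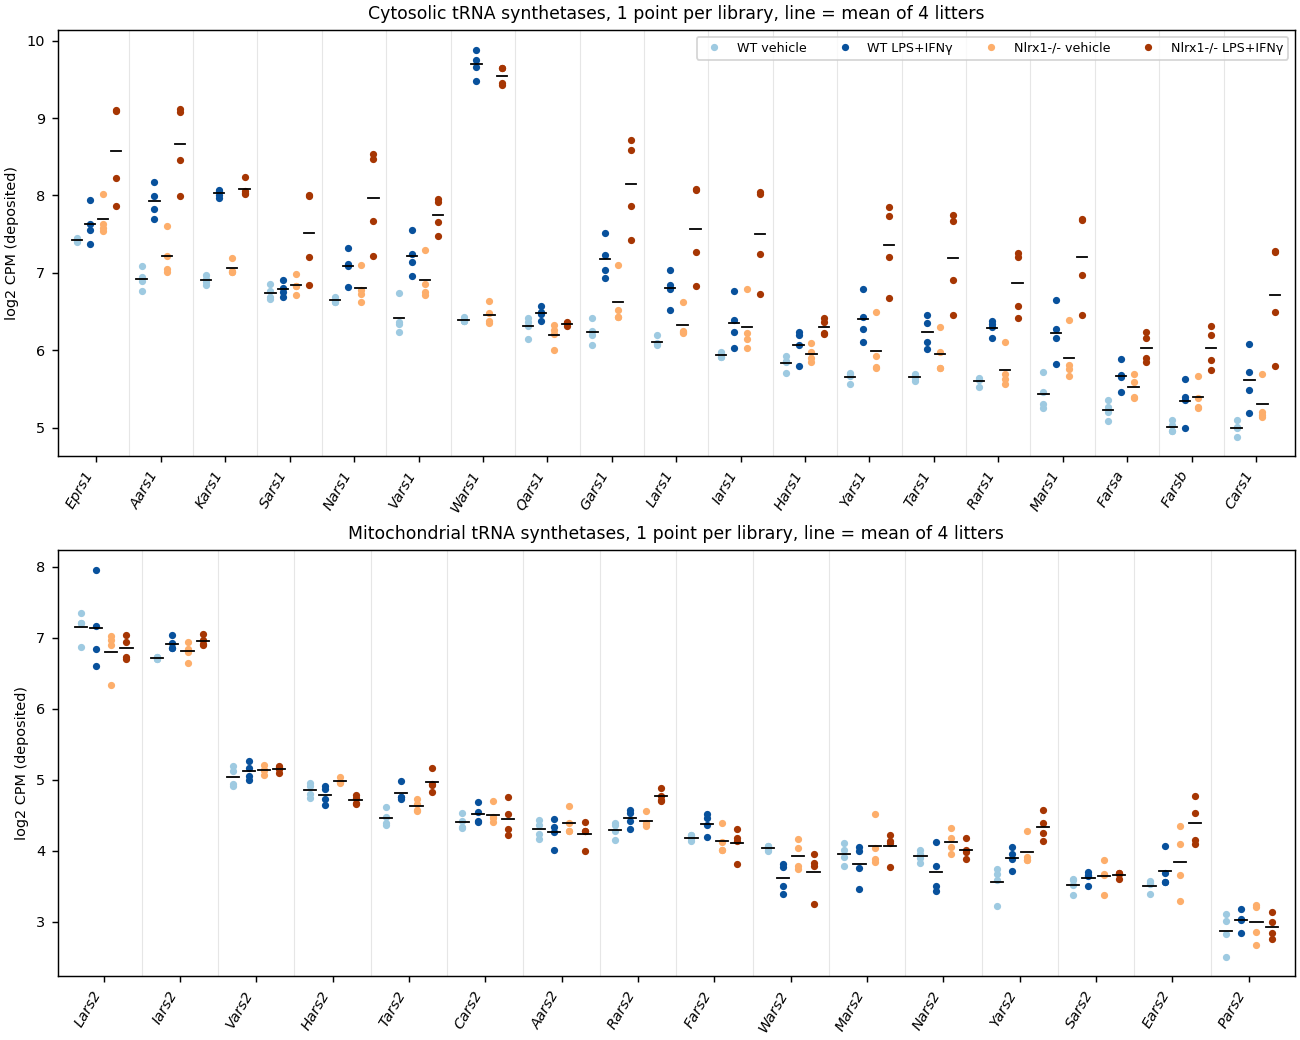
Deposited log2 CPM of each synthetase gene in every library. The upper panel holds the 19 cytosolic and the lower panel the 16 mitochondrial genes, 1 point per library coloured by group, and short lines mark the mean of 4 litters. Wars1 and Kars1 after stimulation lie at about the same level in both genotypes, whereas most other stimulated cytosolic genes spread widely among the Nlrx1-/- litters.

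The first comparison asked how the synthetases respond to LPS+IFNγ in WT astrocytes, within litters. Cytosolic genes rose as a group: 16 of 19 were called up and 0 down (edgeR quasi-likelihood test, Benjamini-Hochberg adjusted p below 0.05 over 16066 genes), where 23.7% of all genes tested were called up and 20.2% down. Their median log2 fold change was 0.64, against -0.02 over all genes tested, and 0.60 without Wars1. Mitochondrial genes moved little, with 3 of 16 called up, 1 called down and a median of 0.12.

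The same comparison in Nlrx1-/- astrocytes gave 18 of 19 cytosolic genes up and 0 down, where 25.3% of all genes tested were called up and 24.2% down. The cytosolic median was 1.15, against -0.03 over all genes tested. Qars1, with a log2 fold change of 0.13 (SE 0.06, adjusted p = 0.0788), was the gene not called. Of the mitochondrial genes 4 of 16 were called up and 1 down, and their median was 0.00. The direction was shared by the members of the multisynthetase complex, of which 5 of 7 were called up in WT and 6 of 7 in Nlrx1-/- cultures, and by the cytosolic genes outside it, with 11 of 12 and 12 of 12.

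Wars1, which charges tryptophan, is on chromosome 12 (108825955 to 108860188, minus strand, GRCm39) and had the largest response of the 35 genes in both genotypes. In vehicle it stood at 6.38, 6.43, 6.38 and 6.38 log2 CPM in WT litters 1 to 4, and the Nlrx1-/- litters had 6.48, 6.64, 6.37 and 6.35. Stimulated libraries had 9.48, 9.75, 9.66 and 9.88 in the WT litters and 9.42, 9.65, 9.64 and 9.46 in the Nlrx1-/- litters. Treatments did not overlap, and the genotypes overlapped in each treatment. The log2 fold change was 3.29 (9.80-fold, SE 0.08, adjusted p = 2.26e-10) in WT and 3.07 (8.40-fold, SE 0.08, adjusted p = 3.86e-10) in Nlrx1-/- cultures. Wars1 ranked 8 of the 35 genes in WT vehicle and 1 in the stimulated cultures of both genotypes, at 564 ± 61.2 TPM in WT and 499 ± 42.6 TPM in Nlrx1-/- cultures. Its share of the summed TPM of the cytosolic genes was 6.09% ± 0.21 in WT vehicle and 29.3% ± 4.67 in stimulated WT cultures (SD, n = 4), and 5.45% ± 0.391 and 19.3% ± 5.29 in the Nlrx1-/- cultures.

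The transcripts behind this gene changed as well. In vehicle a transcript of 2831 bases held between 95.3% and 99.8% of the gene's expected reads in WT and between 97.1% and 98.8% in Nlrx1-/- libraries. After stimulation it held between 19.1% and 27.4% in WT and between 23.1% and 39.1% in Nlrx1-/- libraries, although its own mean level was higher, at 126 ± 9.43 against 63.3 ± 2.95 TPM in WT and at 151 ± 25.1 against 64.4 ± 5.20 TPM in Nlrx1-/- cultures. A second transcript of 2764 bases had 0 expected reads in 7 of 8 vehicle libraries and 5 in the other, and between 13291 and 26778 in the 8 stimulated ones. It held between 67.4% and 76.5% of the gene's reads in stimulated WT and between 56.2% and 72.3% in stimulated Nlrx1-/- libraries.

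The transcript of 1842 bases had 0 reads in every vehicle library and between 932 and 1540 in the stimulated ones, and the one of 1891 bases had between 5 and 146 in vehicle and 0 after stimulation. Salmon shares reads among overlapping transcripts of a gene by estimation, so these numbers are estimates and not counts of distinct reads.

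**Figure D2:**
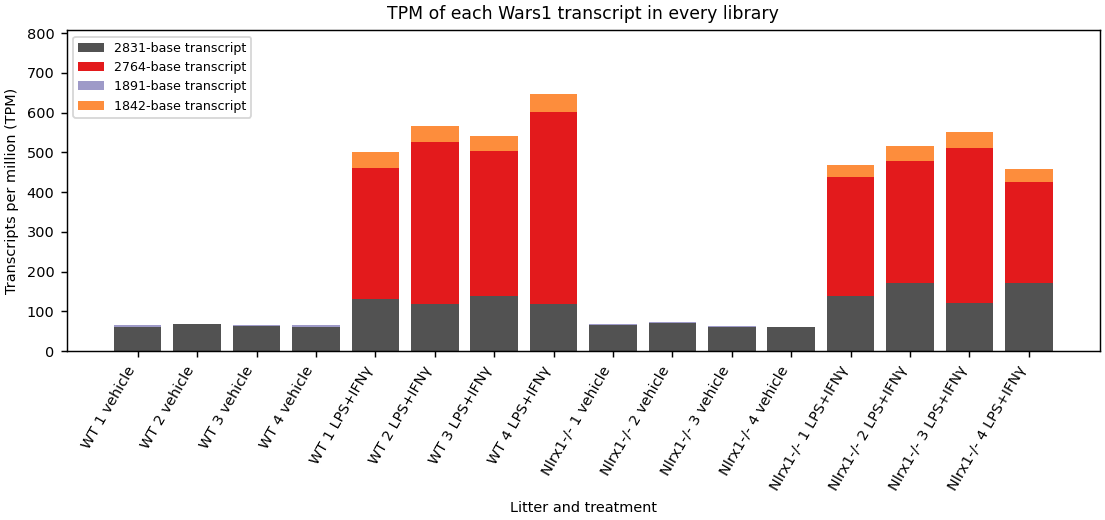
TPM of the 4 Wars1 transcripts in every library, stacked, with libraries on the horizontal axis and colours by transcript length. Vehicle libraries hold almost only the 2831-base transcript, and all 8 stimulated libraries hold mostly the 2764-base transcript.

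The mitochondrial tryptophan gene Wars2, on chromosome 3 (99047954 to 99146502, plus strand, GRCm39), went the other way in WT cultures. Its vehicle libraries had 4.00, 4.07, 4.06 and 4.01 log2 CPM in WT litters 1 to 4, while the Nlrx1-/- litters had 4.04, 4.16, 3.78 and 3.74. Stimulated libraries had 3.76, 3.82, 3.38 and 3.49 in WT and 3.82, 3.78, 3.25 and 3.96 in Nlrx1-/- litters. Every WT litter was lower after stimulation and the WT treatments did not overlap, whereas Nlrx1-/- litter 4 was higher after stimulation by 0.22. Wars2 fell by 0.41 on the log2 scale in WT (SE 0.12, adjusted p = 0.0186) and had -0.19 in Nlrx1-/- cultures (SE 0.12, adjusted p = 0.224), and the difference of these responses was 0.22 (SE 0.17, adjusted p = 0.564). The WT call was lost without WT litter 3 (-0.32, adjusted p = 0.0992), without WT litter 4 (-0.37, adjusted p = 0.0799) and without litter terms (-0.40, adjusted p = 0.0543).

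Kars1, the lysine enzyme for cytosol and mitochondria (chromosome 8, 112719747 to 112738004, minus strand, GRCm39), had a response that hardly varied between litters. It lay at 6.98, 6.92, 6.84 and 6.88 log2 CPM in the vehicle libraries of WT litters 1 to 4 and at 8.07, 8.06, 7.97 and 8.001 in their stimulated libraries. The Nlrx1-/- litters had 7.01, 7.20, 7.01 and 7.02 in vehicle and 8.06, 8.23, 8.01 and 8.04 after stimulation. Treatments were separate by a wide margin and stimulated genotypes overlapped. The responses were between 1.10 and 1.14 in the WT litters and between 1.00 and 1.05 in the Nlrx1-/- litters, which do not overlap. As 5.25% of all rows of the table had every Nlrx1-/- litter response below every WT one, and the test of the difference gave -0.10 (SE 0.05, adjusted p = 0.414), this difference was not called.

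Gars1 and Aars1, for glycine and alanine, followed Wars1 and Kars1 in the size of the WT response. Gars1 had 6.42, 6.19, 6.25 and 6.06 log2 CPM in vehicle and 7.52, 7.23, 7.04 and 6.93 after stimulation in WT litters 1 to 4. In the Nlrx1-/- litters it had 6.43, 7.10, 6.53 and 6.42 in vehicle and 7.87, 8.72, 7.42 and 8.59 after stimulation. Stimulated Nlrx1-/- litters 1, 2 and 4 were above every WT library, litters 2 and 4 highest, and litter 3 lay within the WT range. The log2 fold changes of Gars1 were 0.94 (SE 0.15, adjusted p = 0.000494) in WT and 1.52 (SE 0.15, adjusted p = 1.62e-05) in Nlrx1-/- cultures.

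Aars1 had 7.09, 6.77, 6.95 and 6.90 in vehicle and 8.17, 7.99, 7.83 and 7.70 after stimulation in WT litters 1 to 4. Its Nlrx1-/- libraries had 7.21, 7.60, 7.05 and 7.01 in vehicle and 8.46, 9.12, 7.997 and 9.08 after stimulation. Again stimulated Nlrx1-/- litters 1, 2 and 4 stood above the WT range and litter 3 within it. The log2 fold changes were 0.98 (SE 0.14, adjusted p = 0.000253) in WT and 1.43 (SE 0.14, adjusted p = 1.71e-05) in Nlrx1-/- cultures. Aars1 shares 1326 exonic bases with Exosc6 on the same strand, whose reads cannot be told apart there.

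The remaining cytosolic genes had WT log2 fold changes from 0.03 (Sars1, serine) to 0.81 (Mars1, methionine). Sars1 (adjusted p = 0.881), Eprs1 (0.19, adjusted p = 0.320) and Iars1 (isoleucine, 0.40, adjusted p = 0.0555) were the 3 genes not called in WT. All 3 rose in Nlrx1-/- cultures, with log2 fold changes of 0.66, 0.87 and 1.20, where adjusted p was 0.00378, 0.00079 and 0.000112. Of the WT calls, those of Cars1, Farsb, Hars1, Nars1 and Qars1 were each lost when 1 or more single WT litters were left out. Mars1 shares 3576 exonic bases with the stress gene Ddit3 on the opposite strand, and the libraries carry no strand information, so part of its reads may belong to Ddit3.

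Among the mitochondrial genes, those called up in WT were Iars2 (0.19, SE 0.06), Tars2 (threonine, 0.36, SE 0.10) and Yars2 (tyrosine, 0.33, SE 0.08), with adjusted p of 0.0209, 0.0106 and 0.00876. The call of Iars2 was lost without WT litter 1 (adjusted p = 0.0909) or WT litter 2 (0.0694), that of Tars2 without WT litter 3 (0.0594) and that of Yars2 without litter terms (0.0824). In Nlrx1-/- cultures Ears2 (glutamate, 0.53, SE 0.12), Rars2 (arginine, 0.34, SE 0.07), Tars2 (0.32, SE 0.10) and Yars2 (0.34, SE 0.08) were called up, with adjusted p of 0.00453, 0.00313, 0.0178 and 0.00594. That of Tars2 was lost without Nlrx1-/- litter 1 (adjusted p = 0.101) or litter 3 (0.0532), and those of Ears2 (0.0637) and Yars2 (0.0587) without litter terms. Hars2 (histidine) fell by 0.28 on the log2 scale there (SE 0.08, adjusted p = 0.0104), a call lost with limma-voom (-0.19, adjusted p = 0.0523) and without length offsets (-0.19, adjusted p = 0.0539).

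In WT litters 1 to 4, Ears2 had 3.54, 3.57, 3.52 and 3.39 log2 CPM in vehicle and 4.07, 3.68, 3.56 and 3.56 after stimulation. The Nlrx1-/- litters had 3.66, 4.34, 3.29 and 4.10 in vehicle and 4.09, 4.54, 4.15 and 4.76 after stimulation. Every stimulated Nlrx1-/- library was above every stimulated WT library, and the vehicle libraries overlapped. Ears2 shares 601 exonic bases with Ubfd1 on the opposite strand, a gene with a mean of 5.83 log2 CPM, whose reads cannot be told apart there. Tars2 had 4.48, 4.38, 4.37 and 4.62 in vehicle and 4.98, 4.76, 4.73 and 4.76 after stimulation in WT, without overlap. Its Nlrx1-/- litters had 4.57, 4.73, 4.55 and 4.65 in vehicle and 5.16, 4.92, 4.94 and 4.83 after stimulation, again without overlap.

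Yars2 had 3.74, 3.67, 3.58 and 3.22 log2 CPM in vehicle and 4.05, 3.88, 3.94 and 3.71 after stimulation in WT litters 1 to 4. The Nlrx1-/- litters had 3.87, 4.28, 3.91 and 3.87 in vehicle and 4.13, 4.58, 4.25 and 4.39 after stimulation. All 8 litters moved up, and in each treatment every Nlrx1-/- library was above every WT one. Yars2 shares 3594 exonic bases with Dnm1l on the opposite strand, a gene with a mean of 7.01 log2 CPM, and reads of Dnm1l cannot be told apart there.

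Rars2, the mitochondrial arginine enzyme, had 4.38, 4.36, 4.28 and 4.15 log2 CPM in vehicle and 4.53, 4.30, 4.57 and 4.42 after stimulation in WT litters 1 to 4. In the Nlrx1-/- litters it had 4.39, 4.56, 4.34 and 4.37 in vehicle and 4.70, 4.88, 4.71 and 4.77 after stimulation. Stimulated Nlrx1-/- libraries were above all the others. Hars2 had 4.95, 5.03, 4.97 and 4.97 in Nlrx1-/- vehicle and 4.74, 4.65, 4.79 and 4.67 after stimulation, without overlap, while its WT libraries lay between 4.65 and 4.95 and overlapped between treatments. It shares 198 exonic bases with Hars1 on the opposite strand.

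Lars2 was the mitochondrial gene whose stimulated WT libraries were farthest apart, with 7.16, 6.61, 7.96 and 6.84 log2 CPM, against 6.87, 7.21, 7.35 and 7.20 in vehicle. WT litters 1 and 3 were higher after stimulation and WT litters 2 and 4 lower, so the treatments overlapped. In Nlrx1-/- litters it ran from 6.33 to 7.03 in vehicle and from 6.70 to 7.04 after stimulation. Cars2 (cysteine), Aars2, Fars2 (phenylalanine), Mars2 (methionine), Pars2 (proline), Sars2 and Vars2 (valine) were called in neither genotype, and neither were Lars2 and Nars2.

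Setting the enzymes for an amino acid side by side gave 13 pairs. The cytosolic response exceeded the mitochondrial one in 100 of 104 litter values, and in all 8 litters for 11 pairs. The tryptophan pair differed most, by 3.72 ± 0.325 in WT and 3.31 ± 0.385 in Nlrx1-/- litters (log2, SD, n = 4). Alanine followed in WT with 1.03 ± 0.328, and its value in Nlrx1-/- litters was 1.60 ± 0.632. Serine and isoleucine were the pairs with exceptions. The serine difference was 0.05, 0.02, -0.06 and -0.23 in WT litters 1 to 4, and Nlrx1-/- litters had 0.46, 1.03, -0.29 and 1.44. For isoleucine a single litter, WT 4, was at or below 0, with -0.01. Pairs of a litter share its libraries, so these counts are a description.

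**Figure D3:**
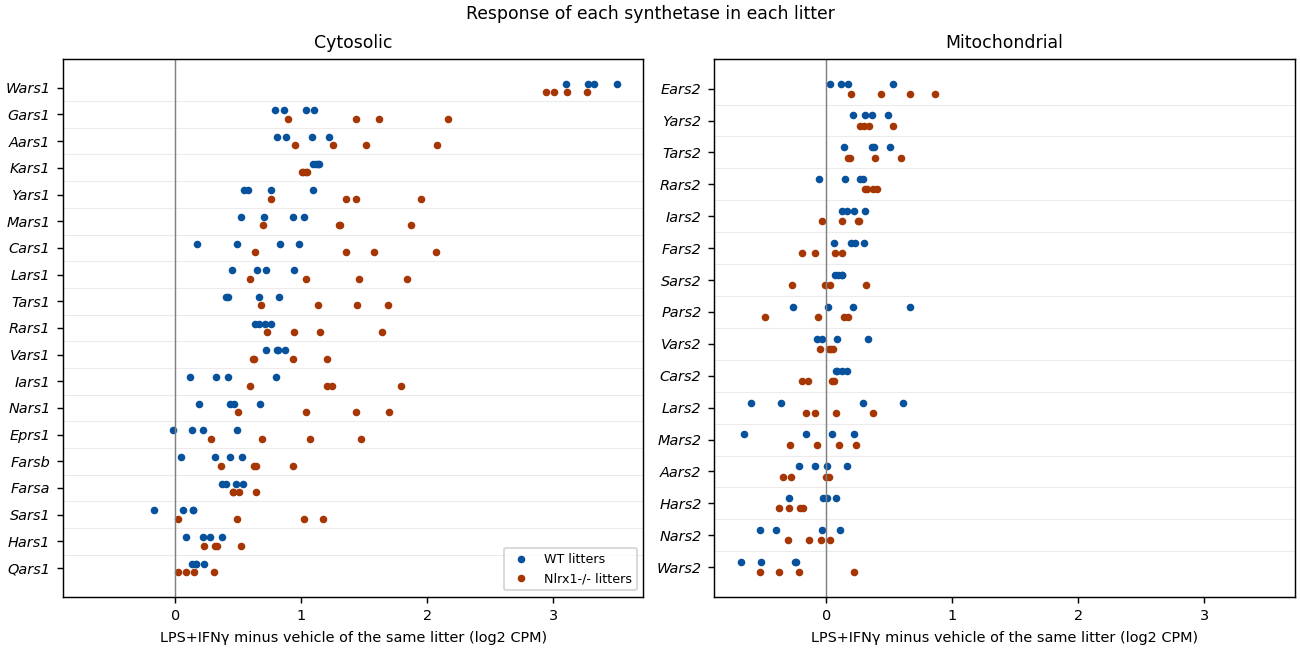
Response of each synthetase gene, as the stimulated minus the vehicle log2 CPM of the same litter, for the 19 cytosolic (left) and 16 mitochondrial genes (right). WT litters are blue and Nlrx1-/- litters are brown, 4 points each, and genes are ordered by the mean of all 8. Wars1 stands near 3 on the horizontal axis in every litter, and mitochondrial genes scatter around 0.

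Whether the genotypes respond differently was asked with the interaction, the Nlrx1-/- response minus the WT response. No gene was called by edgeR, neither among the 35 nor among all genes tested (0% up and 0% down). At an unadjusted p under 0.05 stood 13 of 19 cytosolic and 0 of 16 mitochondrial genes, against 2468 of 16066 genes tested, and the lowest adjusted p among the cytosolic genes was 0.224. The cytosolic median was 0.50 with 16 of 19 values above 0, and the mitochondrial median -0.05 with 7 of 16 above 0, against -0.02 over all genes tested. With a litter left out the cytosolic median ran from 0.30, without Nlrx1-/- litter 4, to 0.69, without Nlrx1-/- litter 3. DESeq2 called 4 cytosolic genes higher in Nlrx1-/- responses, namely Eprs1, Iars1, Nars1 and Tars1, and 0 mitochondrial genes, where it called up 1.05% of the 10771 genes that received an adjusted p. Of 35 genes, Rars2 had every Nlrx1-/- litter response above every WT one, as did 3.06% of all rows of the table, and Kars1 and Cars2 had every one below, as did 5.25% of all rows.

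The litters of a genotype differed in how far the cytosolic genes moved. Over the 19 genes the median log2 difference between wells of a litter was 0.82, 0.71, 0.49 and 0.42 for WT litters 1 to 4, and it was 1.04, 1.24, 0.61 and 1.69 for the Nlrx1-/- litters. Litter 3 of the Nlrx1-/- genotype lay within the WT range, and the other 3 lay above it. By litter number, stimulated Gfap stood at 716, 1130, 1190 and 1540 CPM (WT) and at 643, 390, 1010 and 361 CPM (Nlrx1-/-). Within each genotype this astrocyte marker ranked the litters in reverse of the cytosolic median. Slc1a3, another astrocyte marker, did not in the Nlrx1-/- genotype, with 2410, 2720, 2660 and 2530 CPM after stimulation. A link between Gfap and the cytosolic response was not tested. In Nlrx1-/- litters 1 to 4 the response exceeded that of all WT litters for 14, 14, 0 and 16 of the 19 cytosolic genes, and for 22.7%, 28.4%, 17.4% and 30.5% of all rows of the table. Without Nlrx1-/- litter 3 edgeR called 8 cytosolic genes in the interaction, where 0.773% of all genes were called up, and without any other litter it called 0. The 8 were Cars1, Eprs1, Gars1, Iars1, Nars1, Sars1, Tars1 and Yars1.

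Iars1, an isoleucine enzyme of the multisynthetase complex (chromosome 13, 49835576 to 49887745, plus strand, GRCm39), had the largest interaction among cytosolic genes, 0.79 (SE 0.22, adjusted p = 0.224). WT litters 1 to 4 had 5.96, 5.98, 5.91 and 5.92 log2 CPM in vehicle and 6.77, 6.40, 6.23 and 6.03 after stimulation. The Nlrx1-/- litters had 6.04, 6.80, 6.14 and 6.22 in vehicle and 7.24, 8.04, 6.73 and 8.02 after stimulation. Nlrx1-/- vehicle libraries were all above the WT ones, and in stimulated cultures litter 3 of the Nlrx1-/- genotype lay below WT litter 1.

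Nars2 had the largest interaction in size among mitochondrial genes, -0.63 (SE 0.38, adjusted p = 0.448) on the counts that could be paired. Its deposited log2 CPM, which hold all its reads, gave 0.10 (limma, adjusted p = 0.799), so the sign differed between fits that differ in reads and in tool. They were 4.01, 3.95, 3.82 and 3.90 in vehicle and 4.12, 3.42, 3.78 and 3.50 after stimulation in WT litters 1 to 4. In the Nlrx1-/- litters they were 3.95, 4.31, 4.18 and 4.05 in vehicle and 3.98, 4.18, 3.88 and 4.00 after stimulation. The groups overlapped in each comparison. Fars2 likewise had between 40.3% and 103% of its reads paired, and its WT response was -0.13 in edgeR and 0.20 with limma on the deposited values, not called in either (adjusted p = 0.614 and 0.0704).

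The genotypes were next compared within a treatment. In vehicle 0 of 35 genes were called by edgeR, as were 0% of all genes in either direction. DESeq2 called 0 of the 35, and 781 of the 16066 genes tested. At an unadjusted p under 0.05 stood 4 cytosolic and 2 mitochondrial genes, of 3151 genes in the whole table. The cytosolic log2 fold changes were above 0 for 18 of 19 genes with a median of 0.29, against 0.00 over all genes tested, and the mitochondrial median was 0.12. All Nlrx1-/- libraries were above all WT libraries for 10 of 19 cytosolic and 2 of 16 mitochondrial genes, where 6.02% of all rows were, and all were below for 0 of 35, where 3.43% of all rows were. Nlrx1-/- litter 2 was the highest: its vehicle library exceeded all WT vehicle libraries for 18 of 19 cytosolic genes, against 12, 15 and 13 genes in litters 1, 3 and 4. Over all rows of the table the share was 33.9% for litter 2 and 23.9%, 24.4% and 30.1% for litters 1, 3 and 4. With a litter left out the cytosolic median lay between 0.15, without Nlrx1-/- litter 2, and 0.33.

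In stimulated cultures 13 of 19 cytosolic genes were higher in Nlrx1-/- astrocytes and 0 lower, where 2.65% of all genes were called higher and 2.38% lower. The 13 were Aars1, Cars1, Eprs1, Farsb, Gars1, Iars1, Lars1, Mars1, Nars1, Rars1, Sars1, Tars1 and Yars1, with log2 fold changes from 0.61 (Rars1) to 1.21 (Iars1). The adjusted p of these ran from 0.0396 to 0.0455, just inside the threshold of 0.05. Not called were Farsa (0.33), Hars1 (0.21), Kars1 (0.05), Qars1 (-0.15), Vars1 (0.51) and Wars1 (-0.17). Of the mitochondrial genes 0 of 16 were called, with 3 at an unadjusted p under 0.05, and Rars2 came nearest (0.31, SE 0.09, adjusted p = 0.0506), while DESeq2 called Ears2, Rars2 and Yars2 and called higher 9.12% of the 13883 genes to which it gave an adjusted p. The medians were 0.79 for cytosolic, 0.02 for mitochondrial and -0.01 for all genes tested. A further edgeR fit added a block on litter number, shared by WT and Nlrx1-/- litters although these numbers do not pair their mice. With that block Vars1 (0.52, adjusted p = 0.0431) was called higher too. So were Ears2 (0.65, adjusted p = 0.0428), Rars2 (0.31, adjusted p = 0.0394) and Yars2 (0.43, adjusted p = 0.0384).

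These calls rested on the full set of litters. Leaving out WT litter 2, 3 or 4, or Nlrx1-/- litter 2 or 4, left 0 of the 13 called, and then between 0 and 7 genes were called higher in the whole table in place of 426. Without WT litter 1 or Nlrx1-/- litter 3 the count of cytosolic genes was 15, and without Nlrx1-/- litter 1 it was 10. These 3 fits called 631, 1504 and 149 genes higher in the whole table, in that order, so the count of members moved together with that of all genes. The median of the 19 stayed between 0.63 and 0.97 in these fits.

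**Figure D4:**
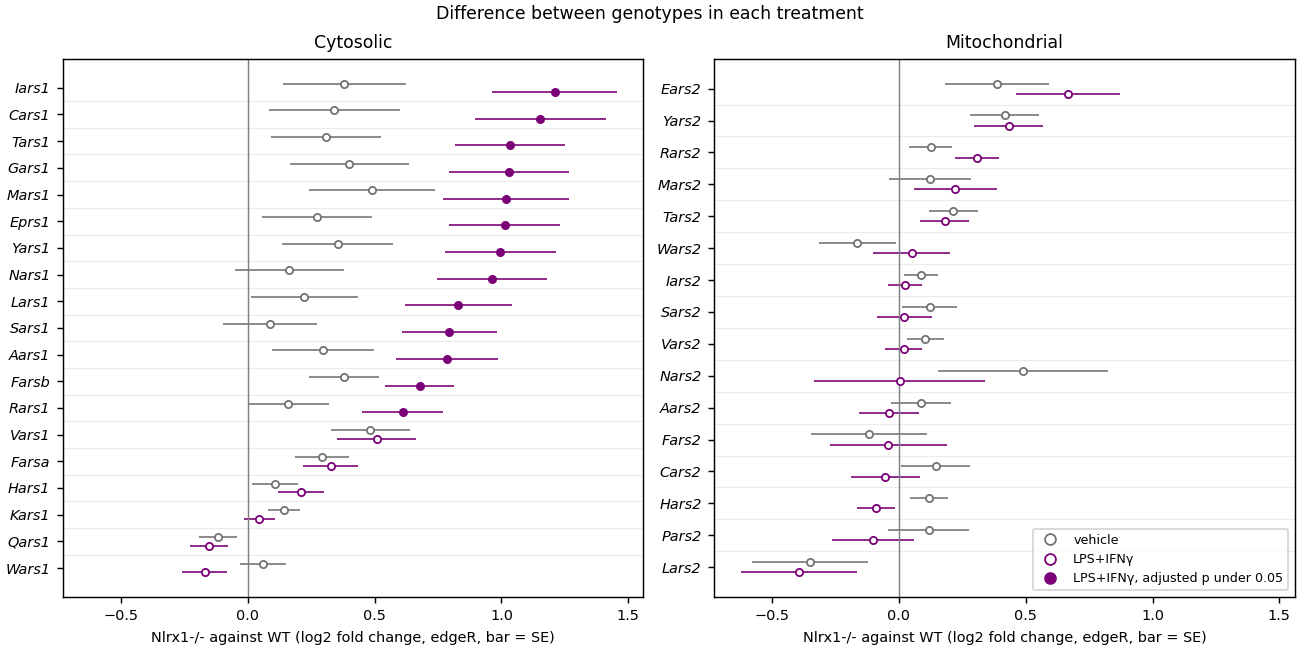
Log2 fold change of Nlrx1-/- against WT with its SE (edgeR) for cytosolic (left) and mitochondrial genes (right), in vehicle (grey) and LPS+IFNγ (purple). Filled points have an adjusted p under 0.05, and all 13 of them are stimulated cytosolic genes between 0.61 and 1.21.

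Library by library, the higher means of the stimulated Nlrx1-/- group came with a wide spread. The SD among the 4 stimulated Nlrx1-/- libraries had a median of 0.54 over the cytosolic genes, against 0.21 in stimulated WT, 0.17 for mitochondrial genes in stimulated Nlrx1-/- cultures and 0.22 over all rows. In WT vehicle the cytosolic median SD was 0.07. The fit used a single spread per gene for all groups, so the SE of the stimulated comparison does not follow the wider spread of its own groups. Litters 2 and 4 were the highest Nlrx1-/- libraries for 16 of the 19 cytosolic and 4 of the 16 mitochondrial genes. The share of all rows with this order was not counted. Markers of other cells also differed between these libraries. Mbp, of the oligodendrocyte lineage, had 11.7, 1.55, 39.5 and 1.6 CPM in stimulated Nlrx1-/- litters 1 to 4, and Cspg4, of the same list, had 46.5, 37.8, 33.9 and 31.1. Their part in this order was not tested. Groups did not overlap for 2 of the 13 called genes, Farsb and Rars1, where 7.09% of all rows had every Nlrx1-/- library above every WT one, and Qars1 was the cytosolic gene with every Nlrx1-/- library below, as were 6.23% of all rows. Of the 16 mitochondrial genes, 3 had every stimulated Nlrx1-/- library above every WT one, namely Ears2, Rars2 and Yars2.

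Farsb, the β subunit of the phenylalanine enzyme, had 5.62, 5.40, 5.35 and 5.00 log2 CPM in stimulated WT litters 1 to 4 and 5.87, 6.31, 5.74 and 6.20 in the Nlrx1-/- litters. Its vehicle libraries had 5.09, 4.96, 5.04 and 4.96 in WT and 5.25, 5.67, 5.38 and 5.26 in Nlrx1-/- cultures. The genotypes did not overlap in either treatment. Farsa, which encodes the α subunit, did not overlap in vehicle, where WT libraries lay between 5.09 and 5.36 and Nlrx1-/- ones between 5.39 and 5.70, and overlapped after stimulation.

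Rars1, for arginine, had 6.37, 6.34, 6.31 and 6.16 in stimulated WT and 6.57, 7.25, 6.42 and 7.20 in stimulated Nlrx1-/- litters 1 to 4. Vehicle libraries had 5.61, 5.63, 5.64 and 5.52 in WT and 5.63, 6.11, 5.70 and 5.56 in Nlrx1-/- cultures and overlapped. Nlrx1-/- litters 2 and 4 stood clearly above the other 2 after stimulation.

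Cars1, for cysteine, had 6.08, 5.71, 5.49 and 5.19 in stimulated WT and 6.50, 7.27, 5.80 and 7.28 in stimulated Nlrx1-/- litters 1 to 4. Its vehicle libraries had 5.10, 4.89, 4.99 and 5.01 in WT and 5.14, 5.69, 5.17 and 5.21 in Nlrx1-/- cultures. Genotypes were separate in vehicle, and in stimulated cultures Nlrx1-/- litter 3 lay below WT litter 1. The stimulated difference was 1.15 (2.22-fold, SE 0.26, adjusted p = 0.0396).

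Eprs1 had 7.94, 7.63, 7.55 and 7.38 in stimulated WT and 8.22, 9.09, 7.87 and 9.10 in stimulated Nlrx1-/- litters. Vehicle libraries had 7.45, 7.41, 7.42 and 7.40 in WT and 7.54, 8.02, 7.58 and 7.63 in Nlrx1-/- cultures. The WT vehicle libraries lay close together, all below the Nlrx1-/- ones, and after stimulation Nlrx1-/- litter 3 was within the WT range. Its stimulated difference was 1.01 (2.02-fold, SE 0.22, adjusted p = 0.0396).

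Tars1, for threonine, had 6.46, 6.35, 6.10 and 6.02 in stimulated WT and 6.91, 7.75, 6.45 and 7.67 in stimulated Nlrx1-/- litters. In vehicle it had 5.63, 5.68, 5.70 and 5.60 in WT and 5.78, 6.30, 5.78 and 5.97 in Nlrx1-/- litters. Here too the vehicle groups were separate and litter 3 of the Nlrx1-/- genotype fell just below WT litter 1 after stimulation. The stimulated difference was 1.03 (2.05-fold, SE 0.22, adjusted p = 0.0396).

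Yars1, for tyrosine, had 6.79, 6.42, 6.28 and 6.11 in stimulated WT and 7.20, 7.84, 6.68 and 7.73 in stimulated Nlrx1-/- litters. Its vehicle libraries had 5.70, 5.66, 5.70 and 5.56 in WT and 5.77, 6.49, 5.92 and 5.78 in Nlrx1-/- cultures, again separate. Lars1, the leucine enzyme, had 7.04, 6.80, 6.85 and 6.52 in stimulated WT and 7.27, 8.08, 6.83 and 8.07 in stimulated Nlrx1-/- litters. For both genes the stimulated Nlrx1-/- litters 1, 2 and 4 were above every WT library and litter 3 was not.

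The vehicle libraries of Lars1 had 6.10, 6.08, 6.20 and 6.07 in WT and 6.24, 6.62, 6.24 and 6.23 in Nlrx1-/- litters, which did not overlap. Nars1 had 7.32, 7.12, 7.09 and 6.82 in stimulated WT and 7.67, 8.54, 7.22 and 8.47 in stimulated Nlrx1-/- litters. Its vehicle libraries had 6.64, 6.68, 6.62 and 6.63 in WT and 6.63, 7.10, 6.72 and 6.78 in Nlrx1-/- cultures. The Nars1 genotypes overlapped in vehicle through Nlrx1-/- litter 1 and after stimulation through litter 3.

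Mars1 had 6.65, 6.28, 6.16 and 5.82 in stimulated WT and 6.97, 7.70, 6.45 and 7.68 in stimulated Nlrx1-/- litters. In vehicle the values were 5.71, 5.26, 5.46 and 5.30 in WT and 5.66, 6.40, 5.75 and 5.80 in Nlrx1-/- litters, which overlap. Sars1 was not called in WT, with 6.66, 6.77, 6.69 and 6.85 in vehicle and 6.80, 6.91, 6.75 and 6.69 after stimulation. Among Nlrx1-/- litters it had 6.72, 6.99, 6.82 and 6.83 in vehicle and 7.21, 8.01, 6.84 and 7.995 after stimulation, where litter 3 differed least between its wells and litters 2 and 4 most.

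The cytosolic genes not called after stimulation split by where their libraries lay. Vars1, for valine, had 7.55, 7.14, 7.24 and 6.96 in stimulated WT and 7.65, 7.92, 7.47 and 7.95 in stimulated Nlrx1-/- litters 1 to 4, with the overlap coming from Nlrx1-/- litter 3. Hars1, for histidine, had 6.20, 6.07, 6.24 and 5.79 in WT and 6.23, 6.41, 6.21 and 6.37 in Nlrx1-/- litters, which overlap through WT litter 3. Qars1 had 6.37, 6.47, 6.49 and 6.58 in WT and 6.36, 6.31, 6.35 and 6.35 in Nlrx1-/- litters and did not overlap, with the Nlrx1-/- libraries lower. Its difference of -0.15 was not called (SE 0.07, adjusted p = 0.188).

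Of the 5 cytosolic genes with TGATGNAA in the window, all were among the 13 higher in stimulated Nlrx1-/- astrocytes, with log2 fold changes from 0.79 to 1.21. Called were 13 of all 19 cytosolic genes and 2.65% of all genes. Of the 7 with a window but without those letters, 4 were (Eprs1, Farsb, Mars1 and Sars1), and the 7 ran from -0.15 to 1.02. These 9 calls are among the 13 that were lost when WT litter 2, 3 or 4 or Nlrx1-/- litter 2 or 4 was left out. The 6 cytosolic genes called neither higher nor lower included Kars1, whose window holds TTCNNNGAA as that of the called Aars1 does, and Qars1, whose window holds the interferon-stimulated motif.

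The integrated stress response and amino acid supply list of 29 genes was set beside the synthetases, since it shares ATF4 as a known regulator. In WT responses 14 were called up and 1 down, in Nlrx1-/- responses 22 up and 0 down, and in stimulated cultures 13 were higher and 0 lower in Nlrx1-/- astrocytes. Over all genes tested 23.7% were up and 20.2% down in WT, 25.3% up and 24.2% down in Nlrx1-/- cultures, and 2.65% higher and 2.38% lower between stimulated genotypes. Without WT litter 2, 3 or 4 or Nlrx1-/- litter 2 or 4 the 13 became 0, with Asns and Trib3 among the calls lost, and without WT litter 1, Nlrx1-/- litter 1 or Nlrx1-/- litter 3 the count was 15, 9 and 20. Atf4 itself rose by 0.76 (SE 0.14, adjusted p = 0.00126) in WT and by 1.47 (SE 0.14, adjusted p = 1.21e-05) in Nlrx1-/- cultures, and its stimulated genotype difference of 1.06 missed the threshold (SE 0.30, adjusted p = 0.0522). Asns, which makes asparagine, was 2.12 higher in stimulated Nlrx1-/- astrocytes on the log2 scale (SE 0.45, adjusted p = 0.0396), and the pseudokinase gene Trib3 was 3.25 higher (SE 0.74, adjusted p = 0.0396).

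By litter, the list median was 0.58, 0.57, 0.39 and 0.17 for WT 1 to 4, and 0.91, 1.36, 0.39 and 1.93 for Nlrx1-/- 1 to 4. Within each genotype the litters stood in the same order as by the cytosolic synthetase median. The medians come from the same libraries and carry no test. The mitochondrial synthetase median stayed between -0.04 and 0.13 in the 8 litters.

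**Figure D5:**
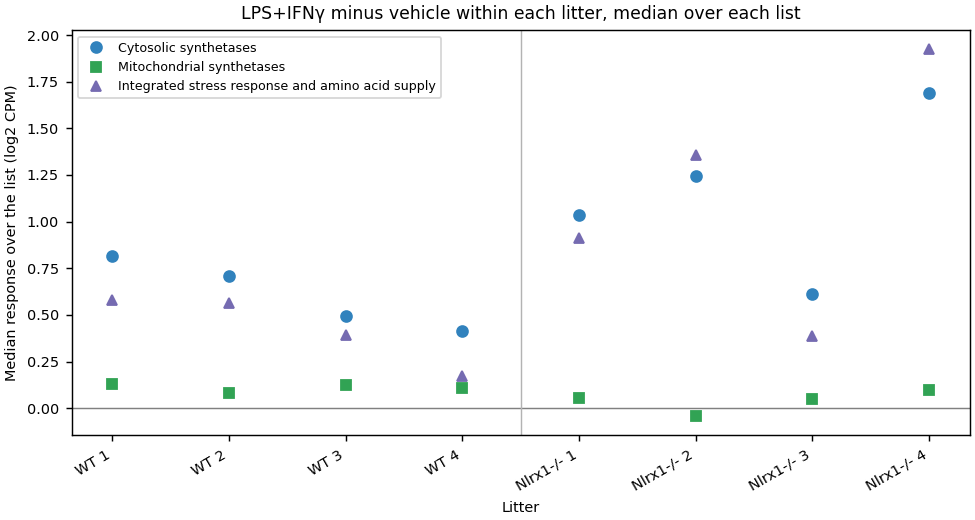
Median response of 3 gene lists in each of the 8 litters, as stimulated minus vehicle log2 CPM. Cytosolic synthetases (circles) run from 0.42 to 1.69, mitochondrial synthetases (squares) from -0.04 to 0.13, and the integrated stress response and amino acid supply list (triangles) from 0.17 to 1.93, with Nlrx1-/- litter 4 highest for the first and last.

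IFNγ targets were a further list. All 15 listed, Irf1 and Cxcl9 among them, rose in both genotypes, with list medians between 6.79 and 7.49 in the 8 litters, and in stimulated cultures 1 was higher and 1 lower in Nlrx1-/- astrocytes, where 2.65% of all genes were higher and 2.38% lower. The stimulated genotype difference of Wars1 was -0.17 (SE 0.09, adjusted p = 0.222).

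Other lists of translation genes had smaller medians than the cytosolic synthetases, and their counts stand against 23.7% of all genes called up and 20.2% down in WT and 25.3% up and 24.2% down in Nlrx1-/- cultures. Of 15 synthetase partners and related enzymes, 5 were called up in WT and 6 up and 1 down in Nlrx1-/- cultures, and Aimp2, a scaffold of the multisynthetase complex, was the partner called higher in stimulated Nlrx1-/- astrocytes (0.41, adjusted p = 0.0488), as were 2.65% of all genes. The Aimp2 call was lost without WT litter 2 or 3, where 0 genes were called higher in the whole table. Of 14 mitochondrial translation factors 6 were up and 1 down in WT and 5 up in Nlrx1-/- cultures, with medians of 0.08 and 0.09, beside 0.07 and 0.15 for the partners. Of 5 cytosolic elongation factors 0 were called up and 2 down in each genotype, with a median of -0.10 in both.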

How the data were processed

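Poly-A libraries without strand information were made from 16 wells, 4 litters of each genotype with a vehicle and a stimulated well from the same mice. The authors estimated expected counts and TPM per transcript with Salmon (1.7.0), against a GRCm39 transcriptome with the genome as decoy. The deposited CPM signal and log2 CPM tables per gene were made by the authors with tximport and limma (3.58.1 in the submitters' processing notes), after their own filter on low genes. A log2 CPM value carries a small prior of 0.0573 CPM.

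Transcripts were paired with gene symbols through RefSeq names (table assembly GRCm38.p6, used for names and promoter windows), and expected counts were summed per gene and rounded. Levels were read from the deposited log2 CPM, and levels between genes from TPM. Tests used edgeR (4.0.16) in R 4.3.3, with TMM scaling, transcript length offsets and filterByExpr at a minimum count of 10, in its quasi-likelihood form. Benjamini-Hochberg adjustment ran over 16066 genes with a threshold of 0.05, and all tests were two-sided. Responses and their interaction were fitted with litters within genotype, as the methods of the study describe. For genotypes within a treatment the fit held the 4 conditions and no litter terms. Vehicle and stimulated wells of a litter are paired by the mice they share, and their deviations from the group means correlated at 0.08 to 0.32. Litter numbers do not pair WT with Nlrx1-/- mice, with correlations of -0.09 to 0.17. Alternatives were DESeq2 (1.42.0), limma-voom and limma on the deposited log2 CPM, edgeR on counts recovered from CPM, RLE scaling, no filter and no length offsets. Others dropped the litter terms from the responses, added a block on litter number to the genotype fit, or left out each litter. Tables were made with pandas 2.3.3 and numpy 2.4.6 under Python 3.11.15 and with the R package data.table (1.17.8), and plots with matplotlib 3.10.9. The edgeR step was tested on simulated data.

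The members and gene lists were chosen with earlier results of these data known. Values in each library are given for Wars1 and Wars2, the 4 members per class with the largest mean response, every member called between genotypes and the largest interaction in each class. Those of Farsa, Hars1, Qars1, Vars1, Hars2, Lars2 and Rars2 were added after their values were seen. Counting error and the spread between libraries both enter the tests. A single spread per gene, estimated over all 16 libraries, served every comparison of a fit. Between genotypes both wells of a litter counted as separate libraries. The spread was uneven, with a median cytosolic SD of 0.07 in WT vehicle and 0.54 in stimulated Nlrx1-/- cultures. The p-values between genotypes therefore do not measure the spread between litters within 1 treatment. A comparison of protein sequences was not run. Exon overlaps and gene positions come from GENCODE M39 on GRCm39. Other members share exonic bases with genes on the opposite strand as well. Among them are Iars2 (2884 bases with Rab3gap2), Cars2 (4080 with Naxd) and Vars1 (463 with D17H6S56E-5). Single values of some listed genes are not reported here.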

Additional observations from a re-analysis of the deposited data

Results flagged for a closer look

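Each of the 20 members named by the rule was checked in 6 sets of 4 litters, the levels of the 4 groups and the responses of both genotypes, 120 sets in all. In 7 of them the highest or lowest litter stood apart from the rest by Dixon's criterion, which chance meets in about 1 of 20 sets. Of these, 5 belonged to the vehicle library of Nlrx1-/- litter 2. They were Cars1 at 5.69 log2 CPM with the nearest library at 5.21, Gars1 at 7.10 with 6.525, Kars1 at 7.20 with 7.02, Lars1 at 6.62 with 6.24, and Yars2 at 4.28 with 3.91. Genes of the same library share its RNA, so these are not separate observations. Wars1 stood at 6.43 in the vehicle library of WT litter 2, with the nearest at 6.38. Tars2 stood at 4.98 in the stimulated library of WT litter 1, with the nearest at 4.76.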

How the results depend on the processing

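The 13 cytosolic genes called higher in stimulated Nlrx1-/- astrocytes were 9 with limma-voom and 15 with DESeq2 and with limma on the deposited log2 CPM. They were 14 with the block on litter number, which does not pair mice of the genotypes. With a litter left out the count ran from 0 to 15. The median of the class ran from 0.72 to 0.81 over the settings that keep all litters. In the same comparison the 0 mitochondrial calls became 3 with DESeq2, 1 with limma-voom, 2 with limma on the deposited log2 CPM and 1 on counts recovered from CPM. They became 1 with RLE, 2 without length offsets, 3 with the block on litter number, and 0 to 3 with a litter left out. Without litter terms in the response fit, WT responses gave 10 cytosolic calls up and 0 mitochondrial calls down, and Nlrx1-/- responses gave 2 mitochondrial calls up. The mitochondrial call down in Nlrx1-/- responses, Hars2, became 0 with limma-voom and without length offsets. The cytosolic interaction gave 4 calls with DESeq2 and, with a litter left out, 0 to 8. With a litter left out, mitochondrial calls down ran from 0 to 1 in WT and from 1 to 3 in Nlrx1-/- responses. The cause of these shifts was not tested. In vehicle no setting called a member. Single members kept their direction wherever they were called. Each genotype has 4 litters, which limits the precision of every comparison.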
